A study of Mus musculus with 9 samples.

Results

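Collagens, laminins and the other proteins of basement membranes and interstitial matrix were followed in the mouse retina at postnatal day 17. The 38 genes were chosen by name, not by their values: 8 fibrillar collagen chains, 5 chains of type IV collagen, 11 other collagen chains, 7 laminin chains, 4 nidogens and heparan sulfate proteoglycans, and 3 matrix glycoproteins. They are 38 of the 25108 entries in the table of expression values. Each of the 38 symbols was found.

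Retinal vessel loss and regrowth can be modelled in mice by oxygen-induced retinopathy (OIR). Newborn pups are exposed to high oxygen, which stops vessel growth and removes capillaries, and new vessels form after the return to room air, many of them outside the normal vessel layers. RNA came from whole retinas of C57BL/6 mice, with 3 libraries in each of 3 groups. The RA WT group was wild type and stayed in room air, the OIR WT group was wild type with retinopathy, and the OIR KO group had retinopathy and lacked IL-19, a cytokine of the interleukin-10 family. The labels give neither the oxygen schedule, nor the part of the gene that the IL-19 knockout removes, nor whether each library was 1 animal or a pool. The p-values below therefore describe how far these samples spread, and that spread may be technical. The room-air state of the knockout was not analysed here, and the 2 genotypes were compared within retinopathy alone. OIR KO and RA WT differ in genotype and in retinopathy at once, and the parts of these cannot be told apart.

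Basement membranes are thin sheets of matrix under endothelial cells, around pericytes and along the inner surface of the retina. A laminin network, built from trimers of an alpha, a beta and a gamma chain, is held to a network of type IV collagen by nidogens and by the heparan sulfate proteoglycans perlecan and agrin. Fibrillar collagens form the banded fibres of interstitial matrix, and in the eye also the thin fibrils of the vitreous gel, where type II collagen is the main chain and type IX collagen sits on the fibril surface. New capillaries lay down basement membrane as they mature.

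Values are FPKM (fragments scaled by transcript length and by library size) as the authors deposited them. Scaling by length lets levels be set beside each other between genes, as far as the transcript lengths used are right. Where values are given by library, they stand in the order 1, 2 and 3 of the group. Differences are between group means on the log2(FPKM + 0.5) scale, which understates changes of genes with low FPKM, and are given with their standard error (SE). A gene is said to have risen or fallen where the adjusted p of limma, a linear model fitted across all 15678 genes that passed a filter on low values, was under 0.05 after Benjamini-Hochberg adjustment over those genes. Of the 38 genes, 37 passed the filter. Lama2, the laminin alpha 2 chain, did not, at 0.288 to 0.552 FPKM over the 9 libraries. Col1a1 and Col6a3 passed only through the retinopathy groups, since no RA WT library reached 0.5 FPKM for either. Col5a2 reached it in 1 RA WT library, so it too needed retinopathy libraries to pass.

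Il19 itself stood at 0.0406 FPKM in RA WT 1 and was listed at 0 in the other 8 libraries, which leaves the genotype labels unchecked by its level. The photoreceptor markers Sag, Rcvrn and Prph2 were abundant in all 9 libraries, at 1302 to 2175, 869 to 1230 and 1264 to 1586 FPKM. Libraries of a group correlated across genes, which are not independent replicates, with r of 0.974 to 0.985. Some libraries stood apart. RA WT 1 and OIR KO 2 held the most lens RNA: Cryaa, a lens crystallin, was at 11.6 and 7.68 FPKM there and at or below 2.17 FPKM in the others. Cryaa, Cryba1, Crybb2, Crygs, Lim2 and Gja3 were listed at 0 in some libraries. The 5 erythrocyte markers summed to 82.5 to 158 FPKM in RA WT. In OIR WT the sum was 512 to 1431 FPKM, and within OIR KO library 2 was at 1070 and libraries 1 and 3 at 112 and 113. On the leading principal component, 47.2% of the variance, RA WT lay between -37.2 and -35.9, OIR WT between 11.7 and 31.3, and OIR KO at 7.96, 32.5 and -3.3. Calls that ended without RA WT 1 and OIR KO 2 are given with both values.

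In wild-type retinopathy 15 of the 37 tested genes rose and 3 fell. Over all 15678 genes 8.04% rose and 7.92% fell, 16.0% in all. At an unadjusted p under 0.05 there were 27 of the 37 and 30.4% of all genes. The median difference was 0.44 on the log2 scale for the 37 genes and 0.02 for all genes. All 4 nidogens and heparan sulfate proteoglycans rose, as did 5 of 8 fibrillar chains, 2 of 5 type IV chains, 2 of 6 tested laminin chains, 1 of 3 glycoproteins and 1 of 11 other collagens. The 3 that fell were the 3 chains of type IX collagen. In 22 of the 38 genes every OIR WT library was above every RA WT library, and in 4 every one was below, against 17.8% and 17.2% of all tested genes (35.0% in all). Lama2, which was not tested, is among the 4. In knockout retinopathy against the same RA WT libraries, 17 of 37 rose and 0 fell, where 4.75% of all genes rose and 5.69% fell (10.4% called in all). At an unadjusted p under 0.05 there were 24 of the 37 and 27.6% of all genes. All OIR KO libraries were above all RA WT libraries in 22 of the 38 genes and below in 1, against 17.3% and 15.4% of all tested genes (32.7% in all). The median of the 37 was 0.55, beside 0.02 for all genes. The plot of each gene's level by library shows the whole list.

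**Figure D1:**
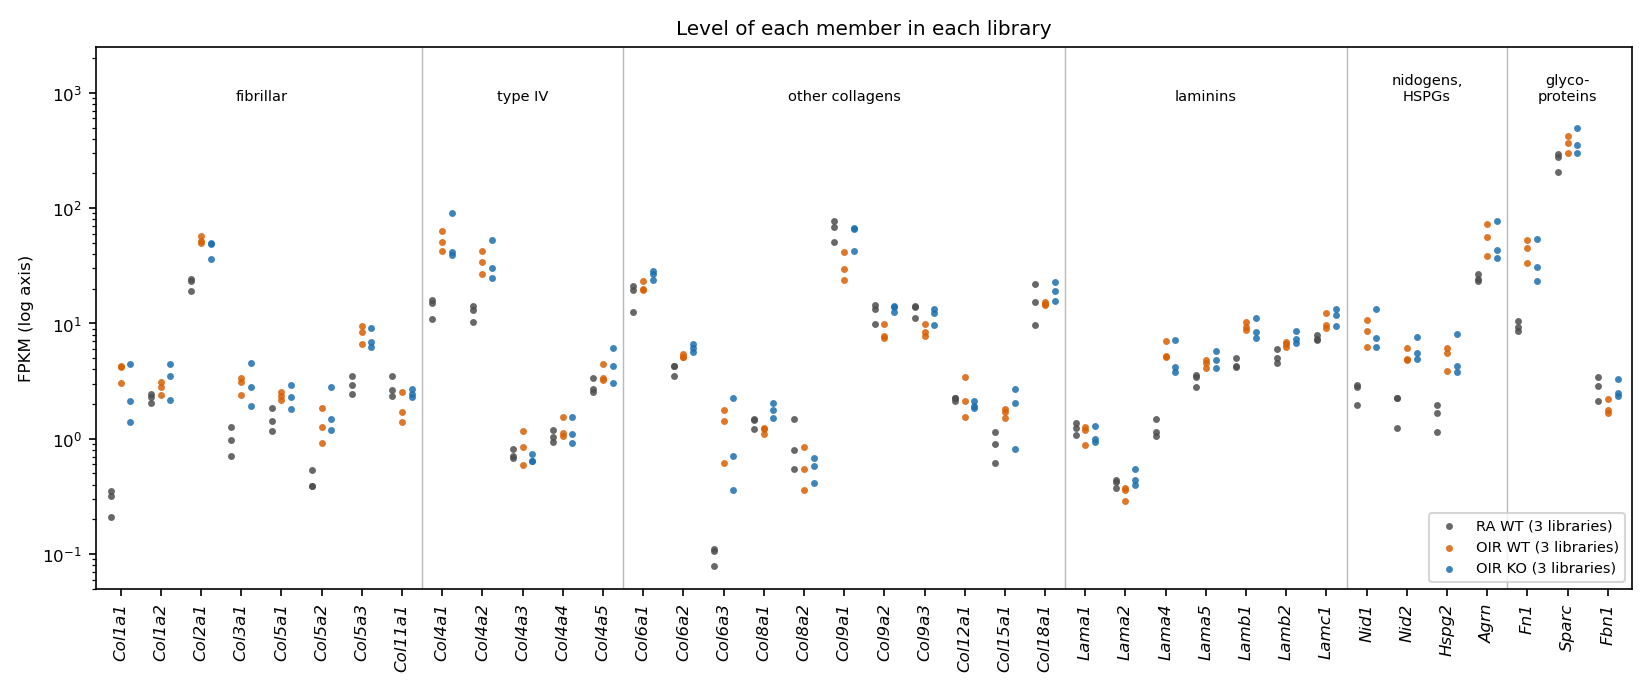
FPKM on a log axis of each of the 38 genes, grouped by role, with 1 point per library (3 RA WT in grey, 3 OIR WT in orange, 3 OIR KO in blue). Sparc is the most abundant, at 207 to 494 FPKM, and Col1a1 and Col6a3 are the genes whose RA WT points lie furthest below their retinopathy points.

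The start regions of type IV collagen genes and of risen genes are shown first. Type IV chains are encoded head to head in pairs, and the 2 pairs with both genes listed gave different results. All sequences are from RefSeq on GRCm38.p6, read 5′ to 3′ on the strand named. Capitals mark matches on either strand. Searched were the core letters of the hypoxia response element, which are ACGTG and also, with another first base, GCGTG. Also searched were CCAAT as a box of its own, the GC box GGGCGG, and the letters of an AP-1 site, written TGACTCA. Matches may overlap, and a match is a description of letters, not of a factor that binds there.

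Col4a1 and Col4a2 (GRCm38 chromosome 8) run in opposite directions and their annotated first exons share 22 bases, chr8:11312805-11312826, shown on the plus strand with its single GC box in capitals:
Col4a1 and Col4a2 shared start: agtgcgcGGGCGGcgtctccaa
Col4a4 and Col4a3 (chromosome 1) also point away from each other, with 71 bases between their starts, chr1:82586850-82586920, shown on the plus strand, without a match to any of the 5 motifs:
Col4a3 and Col4a4 gap: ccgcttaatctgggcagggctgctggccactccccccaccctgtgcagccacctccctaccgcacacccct

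For 5 risen genes the unannotated bases just before the first exon are given on the gene's strand. They are Nid1 (chr13:13437352-13437550, plus), Hspg2 (chr4:137468553-137468768, plus), Lamb1 (chr12:31265043-31265233, plus), Col5a3 (chr9:20815068-20815317, minus) and Col3a1 (chr1:45311288-45311537, plus).
Nid1: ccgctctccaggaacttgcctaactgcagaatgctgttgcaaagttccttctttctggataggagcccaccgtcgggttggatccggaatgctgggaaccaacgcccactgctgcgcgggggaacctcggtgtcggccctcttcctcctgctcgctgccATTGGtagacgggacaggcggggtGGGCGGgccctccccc
Hspg2: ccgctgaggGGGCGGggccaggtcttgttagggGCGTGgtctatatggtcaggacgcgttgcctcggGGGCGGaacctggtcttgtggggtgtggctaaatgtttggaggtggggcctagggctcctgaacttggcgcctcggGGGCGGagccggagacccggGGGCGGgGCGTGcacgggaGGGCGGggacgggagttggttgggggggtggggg
Lamb1: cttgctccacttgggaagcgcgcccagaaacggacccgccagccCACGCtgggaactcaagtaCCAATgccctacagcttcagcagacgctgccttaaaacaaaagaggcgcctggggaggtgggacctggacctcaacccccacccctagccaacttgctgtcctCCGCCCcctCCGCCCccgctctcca
Col5a3: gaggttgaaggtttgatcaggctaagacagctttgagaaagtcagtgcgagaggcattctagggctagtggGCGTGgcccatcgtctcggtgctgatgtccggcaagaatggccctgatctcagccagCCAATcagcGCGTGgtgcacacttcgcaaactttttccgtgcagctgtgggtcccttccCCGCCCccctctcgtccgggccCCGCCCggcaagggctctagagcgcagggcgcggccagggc
Col3a1: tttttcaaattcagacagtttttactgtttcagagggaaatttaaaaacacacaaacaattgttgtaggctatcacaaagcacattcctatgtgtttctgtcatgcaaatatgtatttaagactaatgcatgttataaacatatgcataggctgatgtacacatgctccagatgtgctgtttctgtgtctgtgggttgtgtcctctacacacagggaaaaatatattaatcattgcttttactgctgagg
The Hspg2 stretch held 5 GC boxes and 2 matches to GCGTG, Lamb1 held 2 and 1, and Col5a3 held 2 and 2. The Nid1 stretch held 1 GC box and 1 CCAAT match. Col3a1 held none of the 5 motifs and was 35.2% G and C, where the other 4 stretches were 62.8 to 70.8%.

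RefSeq windows of 250 bases before the start were found for 27 of the 38 genes (31 windows) and for 9 of the 15 genes that rose in OIR WT (10 windows). GCGTG was in 6 of those 10 windows, those of Hspg2, Col4a1, Col4a2, Col5a3, Lamb1 and 1 of Agrn. It was in 28.2% of all 32851 mouse windows of that length. The GC box was in 7 of the 10 windows and in 32.7% of all. The CCAAT box was in 5 and in 33.8%. The remaining motifs, ACGTG at 16.6% and the AP-1 letters at 4.46% of all windows, were in 0 of the 10. Over all 31 windows of the 38 genes, GCGTG was in 7 (22.6%), the GC box in 19 (61.3%) and the CCAAT box in 10 (32.3%). ACGTG was in 3 of the 31 (9.68%). Either form of the hypoxia core, ACGTG or GCGTG, was in 6 of the 10 windows (60%) and in 38.6% of all mouse windows. Over the 31 windows it was in 10 (32.3%), a lower share than in all mouse windows. The Col4a1 and Col4a2 windows overlap, so they are not separate observations.

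Type IV collagen forms the network of every basement membrane, and its alpha 1 and alpha 2 chains, made by Col4a1 and Col4a2, assemble together in 1 trimer. Both genes rose in retinopathy of either genotype. Col4a1 (chromosome 8, 11198423 to 11312826, minus strand) was at 11, 15.1 and 15.9 in RA WT, 51.2, 42.2 and 63.4 in OIR WT, and 41.7, 90.3 and 39.1 FPKM in OIR KO. Col4a2 (11312805 to 11449287, plus strand) was at 10.2, 13 and 14.2 in RA WT, 34.3, 27.1 and 42.9 in OIR WT, and 30, 53.3 and 25 FPKM in OIR KO. For both genes every retinopathy library exceeded every RA WT library, and OIR KO 2 was the highest of all 9. The mean of Col4a1 was 3.73-fold and that of Col4a2 2.79-fold higher in OIR WT than in RA WT. On the log2 scale OIR WT exceeded RA WT by 1.86 (SE 0.31, limma adjusted p 0.00745) for Col4a1 and by 1.43 (SE 0.28, adjusted p 0.0118) for Col4a2. OIR KO exceeded RA WT by 1.90 (adjusted p 0.0101) and 1.43 (adjusted p 0.0158), the latter at an adjusted p of 0.0505 without RA WT 1.

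The other type IV chains did not pass the test in either comparison with all libraries. Col4a3 and Col4a4, whose chains form the trimer of kidney glomerulus and cochlea with the alpha 5 chain, stayed low: 0.684 to 0.821 FPKM (Col4a3) and 0.942 to 1.2 FPKM (Col4a4) in RA WT, and 0.596 to 1.17 and 1.05 to 1.54 FPKM in OIR WT. Their groups overlapped, with differences of 0.13 (95% interval -0.26 to 0.51) and 0.15 (-0.25 to 0.55) between OIR WT and RA WT. Col4a5, on chromosome X, was at 2.53 to 3.35 in RA WT, 3.24 to 4.48 in OIR WT and 3.02 to 6.12 FPKM in OIR KO, and differed by 0.31 (adjusted p 0.38) and 0.53 (adjusted p 0.159; 0.75 and 0.0404 without OIR KO 3). Thus the head-to-head pair on chromosome 8 rose, and for the pair on chromosome 1 the intervals reach no further than 0.55. At the low FPKM of Col4a3 and Col4a4 the log2(FPKM + 0.5) scale understates changes, so this limit is not on equal terms with the chromosome 8 pair. Their means in OIR WT were 1.18-fold and 1.17-fold those in RA WT.

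Laminins are the first component laid down in a basement membrane, and the alpha chain sets the type: alpha 4 and alpha 5 are the chains of vessel walls, and alpha 1 and alpha 2 are found in the inner limiting membrane and other sheets. Lama4, the alpha 4 chain (chromosome 10, 38965515 to 39110188), rose most. It was at 1.06, 1.14 and 1.49 in RA WT, 5.16, 5.2 and 7.07 in OIR WT, and 4.17, 7.18 and 3.82 FPKM in OIR KO, so all 6 retinopathy libraries were above all 3 controls. The difference was 1.86 (SE 0.22, limma adjusted p 0.00165) in OIR WT and 1.64 (SE 0.22, adjusted p 0.0039) in OIR KO. Lamb1, the beta 1 chain (chromosome 12, 31265234 to 31329644), was at 4.27, 4.16 and 4.97 in RA WT, 9.35, 8.8 and 10.3 in OIR WT, and 8.44, 11.2 and 7.45 FPKM in OIR KO. Its groups did not overlap with RA WT either, and it rose by 1.01 (adjusted p 0.00339) and 0.93 (adjusted p 0.00632).

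The remaining vessel laminin chains moved less. Lamc1, the gamma 1 chain shared by most laminins, was at 7.16, 7.88 and 7.35 in RA WT, 9.62, 9.14 and 12.4 in OIR WT, and 11.8, 13.4 and 9.46 FPKM in OIR KO. Lama5 was at 2.8, 3.59 and 3.42 FPKM, then 4.83, 4.54 and 4.08 FPKM, then 4.81, 5.77 and 4.14 FPKM in the same order of groups. Lamb2, the beta 2 chain, was at 4.5, 5.04 and 6 FPKM, 6.93, 6.29 and 6.62 FPKM, and 6.8, 8.6 and 7.28 FPKM. In all of these, too, no retinopathy library fell into the RA WT range. In OIR WT the differences of Lamc1, Lama5 and Lamb2 were 0.44, 0.41 and 0.33 with adjusted p of 0.0687, 0.086 and 0.108, and in OIR KO they were 0.59, 0.51 and 0.51 with limma adjusted p of 0.0333, 0.0497 and 0.0338. The OIR KO calls of these chains were lost in 8 (Lamc1), 13 (Lama5) and 8 (Lamb2) of 17 alternative analyses, among them the one without RA WT 1 and OIR KO 2 (adjusted p 0.185, 0.274 and 0.205). Lama1 lay at 0.879 to 1.36 FPKM in the 6 wild-type libraries and 0.939 to 1.3 FPKM in OIR KO, with differences of -0.10 and -0.13.

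Of the 4 linkers between the laminin and collagen networks, 4 rose in OIR WT and 3 in OIR KO. Nid1, nidogen 1 (chromosome 13, 13437551 to 13512269), was at 1.98, 2.91 and 2.79 in RA WT, 8.6, 6.28 and 10.7 in OIR WT, and 7.44, 13.4 and 6.2 FPKM in OIR KO. Nid2, nidogen 2 (chromosome 14), was at 1.25, 2.28 and 2.28 FPKM, 4.78, 4.93 and 6.13 FPKM, and 5.6, 7.69 and 4.93 FPKM. Hspg2, which encodes perlecan (chromosome 4, 137468769 to 137570630), was at 1.14, 1.67 and 1.96 FPKM, 5.56, 3.88 and 6.1 FPKM, and 4.26, 8.18 and 3.78 FPKM. For each of these genes the lowest retinopathy library was well above the highest control. Against RA WT, OIR WT was higher by 1.54 (Nid1, SE 0.28, limma adjusted p 0.00803), 1.27 (Nid2, SE 0.21, adjusted p 0.00569) and 1.44 (Hspg2, SE 0.28, adjusted p 0.00957). OIR KO was higher by 1.58, 1.44 and 1.45 (adjusted p 0.0105, 0.005 and 0.013). The call of Hspg2 in OIR KO ended, at an adjusted p of 0.0514, without RA WT 1 and OIR KO 2.

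Agrn, which encodes agrin (chromosome 4, 156165290 to 156197488), was the most abundant of the 4. It was at 24.5, 26.7 and 23.5 in RA WT, 72.3, 38.3 and 56.2 in OIR WT, and 43.1, 77.9 and 37.1 FPKM in OIR KO. All retinopathy libraries were above the controls, yet they ranged widely. It rose by 1.10 in OIR WT (SE 0.29, adjusted p 0.0378), a call lost in 7 of 17 alternatives (adjusted p up to 0.121), and the difference in OIR KO was 0.99 (adjusted p 0.0664; 1.20 and 0.0403 without OIR KO 3).

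Taking the 18 basement membrane genes as 1 list (type IV chains, laminins, nidogens, perlecan, agrin and the basement membrane collagens Col15a1 and Col18a1), 8 of 17 tested rose in OIR WT, with a median difference of 0.67, and 10 of 17 rose in OIR KO, with a median of 0.69. The shares of all genes that rose were 8.04% and 4.75%. None fell. Markers of vessel cells rose in part. Of 12 endothelial markers, 5 rose and 1 fell in OIR WT, and 8 rose and 0 fell in OIR KO. Their summed level was 79 to 108 in RA WT, 110 to 149 in OIR WT and 139 to 191 FPKM in OIR KO. Of 11 tested pericyte and smooth muscle markers 7 rose in OIR WT and 4 in OIR KO. Their sums were 46.1 to 60.2, 107 to 161 and 86.3 to 147 FPKM. Cnn1 was listed at 0 in some libraries. More cells of a type and more RNA per cell cannot be told apart in whole-retina libraries, and the part of these cells in the matrix differences was not tested.

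**Figure D2:**
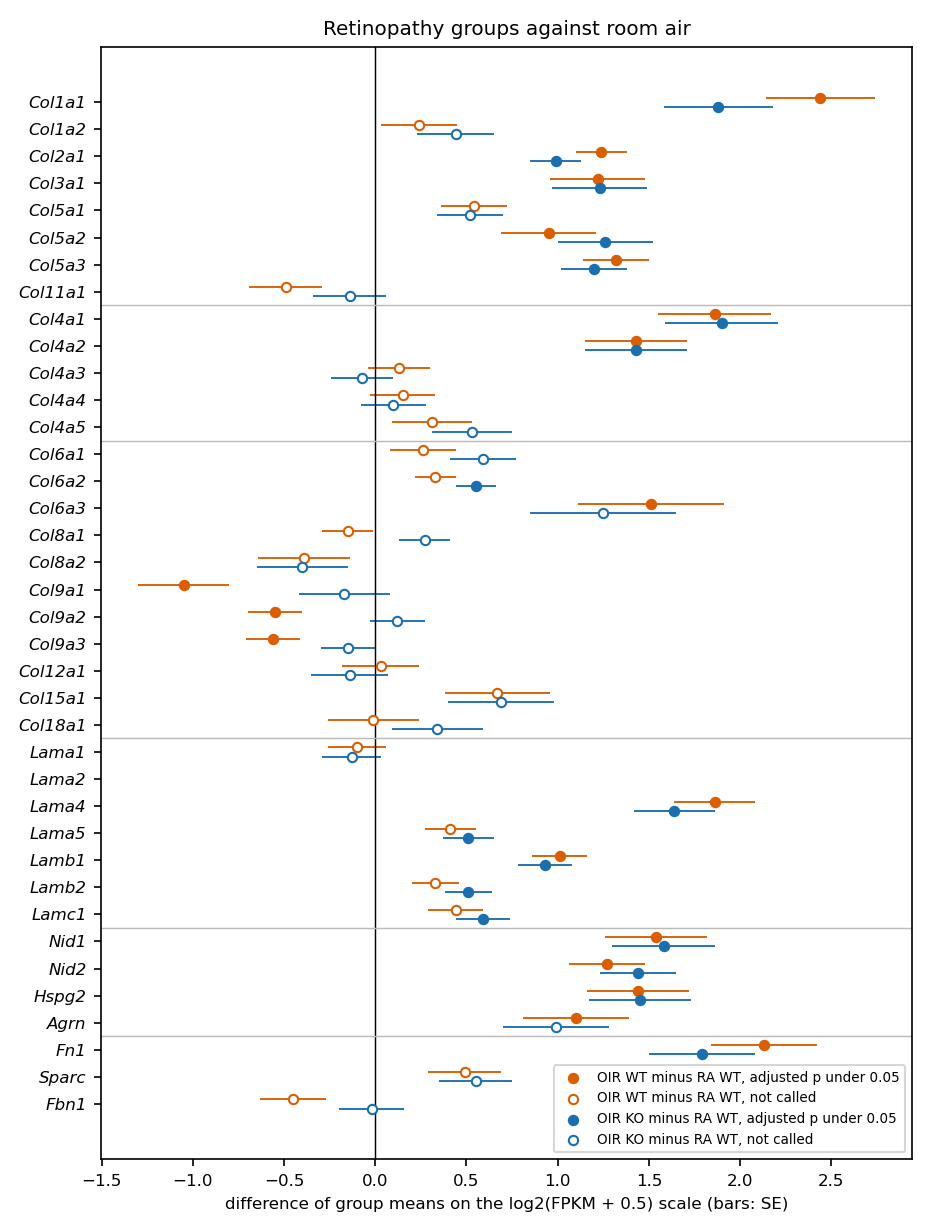
Difference of group means on the log2(FPKM + 0.5) scale for each gene, OIR WT minus RA WT in orange and OIR KO minus RA WT in blue, with bars of 1 SE and filled points where the limma adjusted p was under 0.05. Both comparisons use the same 3 RA WT libraries, so their points are not independent; Lama2 was not tested and has no point.

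Among the fibrillar collagens, Col1a1, the alpha 1 chain of type I collagen (chromosome 11, 94936224 to 94953042), rose most. It was at 0.208, 0.354 and 0.32 in RA WT, 4.27, 3.03 and 4.19 in OIR WT, and 2.11, 4.47 and 1.41 FPKM in OIR KO. The controls and the retinopathy libraries were far apart. The difference was 2.44 in OIR WT (SE 0.30, limma adjusted p 0.00199) and 1.88 in OIR KO (SE 0.30, adjusted p 0.0068), and the ratio of group means was 13-fold and 9.07-fold. Its partner Col1a2 (chromosome 6), which supplies the remaining chain of the same trimer, gave no call. Col1a2 was at 2.06, 2.32 and 2.45 in RA WT, 3.11, 2.39 and 2.84 in OIR WT, and 3.53, 4.48 and 2.16 FPKM in OIR KO. Its groups overlapped, and its differences of 0.24 (95% interval -0.23 to 0.71) and 0.44 (-0.03 to 0.91) had adjusted p of 0.491 and 0.208. Without OIR KO 3 the latter was 0.69 and passed (adjusted p 0.0276).

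Type III collagen accompanies type I in vessel walls, and type V collagen starts the fibrils of both. Col3a1 (chromosome 1, 45311538 to 45349706, plus strand) was at 0.716, 0.973 and 1.27 in RA WT, 3.08, 2.38 and 3.36 in OIR WT, and 2.83, 4.56 and 1.91 FPKM in OIR KO. Its neighbour Col5a2 (45374321 to 45503282, minus strand), which ends 24614 bases away and points toward it, was at 0.387, 0.531 and 0.388 FPKM, 1.27, 0.912 and 1.84 FPKM, and 1.47, 2.81 and 1.2 FPKM. Neither gene had a retinopathy library within the control range. In OIR WT Col3a1 rose by 1.22 (SE 0.26, adjusted p 0.0139) and Col5a2 by 0.95 (SE 0.26, adjusted p 0.0366). Leaving out OIR WT 1 or OIR WT 3 ended the call of Col3a1 (adjusted p 0.0535 and 0.0517), and 9 of 17 alternatives ended that of Col5a2 (up to 0.124). In OIR KO they rose by 1.23 (adjusted p 0.0182) and 1.26 (adjusted p 0.0175), and without RA WT 1 and OIR KO 2 neither passed (0.0943 and 0.0895).

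Col5a3 (chromosome 9, 20770050 to 20815067), a further type V chain, also rose. It was at 2.9, 3.48 and 2.47 in RA WT, 9.52, 6.6 and 8.38 in OIR WT, and 6.96, 9.14 and 6.26 FPKM in OIR KO, without overlap between control and retinopathy. The differences were 1.32 (SE 0.18, limma adjusted p 0.00277) and 1.20 (SE 0.18, adjusted p 0.005). Col5a1 ranged from 1.16 to 1.84 in RA WT, from 2.15 to 2.56 FPKM in OIR WT and from 1.83 to 2.9 FPKM in OIR KO, with differences of 0.54 (adjusted p 0.0687) and 0.52 (adjusted p 0.0915).

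Beside the fibrillar chains, the markers of fibroblasts and of scleral or choroidal stroma did not show a joint shift. Of the 10 listed, 4 passed the filter and 1 of these, Pdgfra, rose in OIR WT, where 8.04% of all genes rose. The summed level was 7.52 to 13.2 in RA WT, 9.2 to 10 in OIR WT and 10.5 to 13.1 FPKM in OIR KO, and Dpt, Lum and Twist2 were listed at 0 in some libraries. Some pericyte and smooth muscle markers rose, as given above, and their part was not tested.

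Type II, IX and XI chains, the collagens of vitreous and cartilage fibrils, went in different directions. Col2a1 (chromosome 15, 97975602 to 98004695) was at 19.2, 24.4 and 23.2 in RA WT, 49.9, 57.5 and 51.7 in OIR WT, and 49.1, 49.4 and 36.3 FPKM in OIR KO. The retinopathy libraries were all above the controls, and the gene rose by 1.24 (SE 0.14, limma adjusted p 0.00124) in OIR WT and 0.99 (SE 0.14, adjusted p 0.00417) in OIR KO. Col11a1 was at 2.33 to 3.5 in RA WT, 1.4 to 2.56 in OIR WT and 2.3 to 2.71 FPKM in OIR KO, with overlapping groups and differences of -0.49 (adjusted p 0.123) and -0.14 (adjusted p 0.701).

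The 3 chains of type IX collagen were the only members that fell in OIR WT. Col9a1 (chromosome 1, 24177610 to 24252684) was at 50.6, 77.4 and 68.6 in RA WT, 29.6, 41.7 and 23.7 in OIR WT, and 67.4, 42.6 and 65.6 FPKM in OIR KO. Col9a2 (chromosome 4) was at 9.81, 13.4 and 14.4 FPKM, 7.75, 9.81 and 7.47 FPKM, and 13.8, 12.7 and 14.2 FPKM in the same order. Col9a3 (chromosome 2) was at 11.1, 14 and 14.2 FPKM, 7.74, 9.95 and 8.44 FPKM, and 12.3, 9.63 and 13.3 FPKM. In all chains RA WT 1 was the lowest control, and OIR WT 2 was the highest OIR WT library. OIR WT was below RA WT by -1.05 (Col9a1, SE 0.25, limma adjusted p 0.0242), -0.55 (Col9a2, SE 0.15, adjusted p 0.0344) and -0.56 (Col9a3, SE 0.15, adjusted p 0.0303). These calls were lost in 6, 8 and 6 of 17 alternatives (adjusted p up to 0.0818, 0.118 and 0.115), among them those that left out library 2 or 3 of RA WT, or library 1 or 3 of OIR WT, and those with a replicate block or a Y-linked covariate. Y-linked RNA was at the floor in RA WT 2 and OIR KO 1 alone (summed log2 level -4, against 11.4 to 14.6 in the others). These libraries had the highest Col9a1 of their groups, whereas the highest Col9a2 and Col9a3 were in RA WT 3 and OIR KO 3. The part of Y-linked RNA was not tested beyond that covariate, with which the adjusted p of the chains were 0.059, 0.0901 and 0.0822.

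OIR KO against RA WT gave no call in these chains, with differences of -0.17 (95% interval -0.74 to 0.40), 0.12 (-0.21 to 0.46) and -0.15 (-0.48 to 0.17). Against OIR WT, which is the group that was low, the knockout was higher by 0.88 (0.31 to 1.45), 0.68 (0.34 to 1.01) and 0.41 (0.08 to 0.73), with limma p of 0.00681, 0.00117 and 0.0203 before adjustment and 0.317, 0.186 and 0.42 after it. No type IX chain passed, and this comparison shares its OIR WT libraries with the comparison in which the chains fell. In Col9a1 and Col9a2 all OIR KO libraries lay above all OIR WT libraries. In Col9a3, OIR KO 2 at 9.63 FPKM lay within the OIR WT range.

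**Figure D3:**
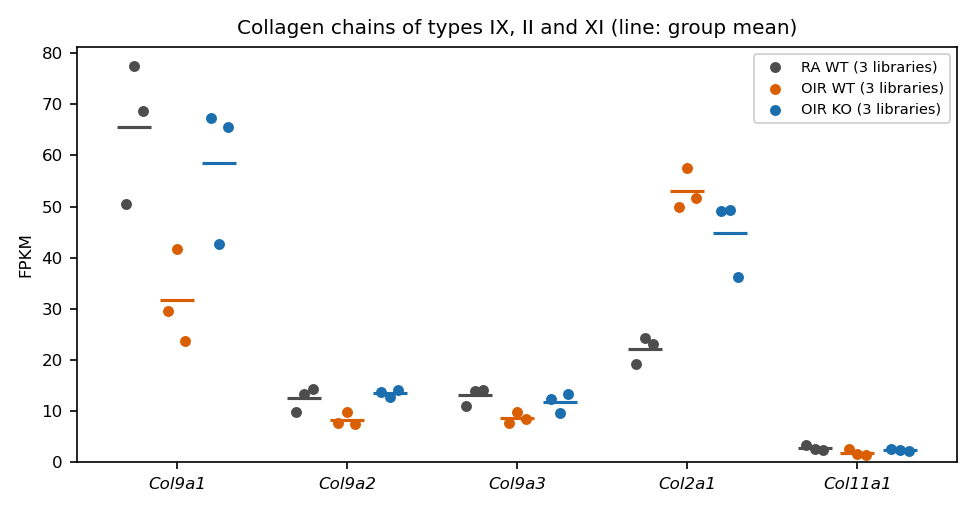
FPKM of the type IX chains and of Col2a1 and Col11a1 on a linear axis, 1 point per library and a line at the mean of each group of 3. Col9a1 is at 23.7 to 41.7 in OIR WT, below all RA WT libraries, whereas Col2a1 is at 49.9 to 57.5 in OIR WT, above all RA WT libraries.

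Markers of neighbouring eye tissues and of glia stand beside the type IX values. Of the 8 markers of ciliary body, iris and cornea, 4 were tested and 1 fell in OIR WT: Optc, which encodes opticin, a vitreous protein, was at 27.8, 50.6 and 58.7 in RA WT, 17.5, 22.2 and 15.8 in OIR WT, and 33, 33.8 and 25.9 FPKM in OIR KO. Its difference of -1.23 in OIR WT had a limma adjusted p of 0.0158. The summed list was at 37.2 to 75.4, 24.1 to 30.6 and 33.5 to 43.5 FPKM, and Krt5 and Krt14 were listed at 0 in some libraries. Müller glia markers also fell, 6 of 10 in OIR WT, with sums of 2382 to 3154, 1422 to 1922 and 2069 to 2292 FPKM. Beside the counts of both lists, 7.92% of all genes fell in OIR WT. The part of the glia and of the neighbouring tissues in the type IX values was not tested.

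Type VI collagen makes beaded filaments next to basement membranes. Col6a1 (chromosome 10) was at 19.6, 21.2 and 12.5 in RA WT, 19.4, 23.5 and 19.9 in OIR WT, and 28.8, 23.8 and 26.7 FPKM in OIR KO. Col6a2, its neighbour on the same strand 85161 bases away, was at 4.28, 4.3 and 3.52 FPKM, 5.08, 5.43 and 5.09 FPKM, and 6.58, 6.13 and 5.71 FPKM. Both were highest in OIR KO. Col6a2 rose there by 0.55 (SE 0.11, limma adjusted p 0.0152; 0.0681 without RA WT 1 and OIR KO 2), and the other differences were 0.33 (Col6a2 in OIR WT, adjusted p 0.0708), 0.26 (Col6a1 in OIR WT, adjusted p 0.366) and 0.59 (Col6a1 in OIR KO, adjusted p 0.0638). Col6a3 (chromosome 1, 90765923 to 90843971) was nearly silent in controls, at 0.107, 0.111 and 0.0796 FPKM, and stood at 1.43, 0.622 and 1.78 FPKM in OIR WT and 0.712, 2.27 and 0.358 FPKM in OIR KO. It rose by 1.51 in OIR WT (SE 0.40, adjusted p 0.0346), or 2.68 with a pseudocount of 0.1, and the call was lost in 10 of 16 alternatives (up to 0.114). Its low controls make the size depend on the pseudocount, and its difference in OIR KO was 1.25 (adjusted p 0.0803), which passed with a pseudocount of 0.1 (2.27, adjusted p 0.0325) and without OIR KO 3 (1.61, adjusted p 0.0276).

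The basement membrane collagens that carry heparan sulfate side chains or chondroitin sulfate did not pass. Col18a1, whose C-terminal fragment is endostatin, was at 9.79, 15.5 and 22 in RA WT, 14.9, 14.4 and 15.5 in OIR WT, and 19.1, 23.1 and 15.8 FPKM in OIR KO. The controls spanned more than either retinopathy group, and the differences were -0.01 (95% interval -0.57 to 0.56) and 0.34 (-0.23 to 0.91). Col15a1 ranged from 0.615 to 1.15 in RA WT, 1.52 to 1.8 in OIR WT and 0.823 to 2.7 FPKM in OIR KO, at differences of 0.67 (adjusted p 0.156) and 0.69 (adjusted p 0.162). It passed in OIR WT when only the 2 groups compared were fitted (adjusted p 0.0408), and in OIR KO without OIR KO 3 (0.0132). The short-chain collagens Col8a1 and Col8a2 and the fibril-associated Col12a1 ranged from 0.361 to 3.46 FPKM over the wild-type libraries, and none passed, with differences between OIR WT and RA WT of -0.15, -0.39 and 0.03.

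Of the glycoproteins, Fn1 rose. Fibronectin is an early matrix protein of growing vessels and the ligand of integrin alpha 5 beta 1. Fn1 (chromosome 1, 71585520 to 71653200, minus strand) was at 8.6, 9.32 and 10.6 in RA WT, 45.6, 33.5 and 52.8 in OIR WT, and 31.2, 54.2 and 23.2 FPKM in OIR KO. All 6 retinopathy libraries exceeded the controls, with means 4.62-fold and 3.8-fold higher and differences of 2.13 (SE 0.29, limma adjusted p 0.00348) and 1.79 (SE 0.29, adjusted p 0.00872).

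Sparc, a collagen-binding protein of basement membranes, was at 207, 277 and 293 in RA WT, 371, 301 and 423 in OIR WT, and 355, 494 and 303 FPKM in OIR KO. It was the most abundant of the 38 genes in every library. No retinopathy library was in the control range, yet the differences of 0.49 (95% interval 0.04 to 0.95, adjusted p 0.133) and 0.55 (0.10 to 1.01, adjusted p 0.113) did not pass. Fbn1, the microfibril protein fibrillin 1, was at 2.11 to 3.43 in RA WT, 1.69 to 2.2 in OIR WT and 2.37 to 3.31 FPKM in OIR KO. Its difference in OIR WT was -0.45 (adjusted p 0.125), and -0.61 (adjusted p 0.0372) without RA WT 1 and OIR KO 2. Of its 12128 exonic bases, 2442 overlap Gm9913 on the opposite strand. No source used here names the strand setting of the quantification, so reads of the pair cannot be told apart.

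The same holds for smaller overlaps with genes on the opposite strand. These were 631 exonic bases of Lama2 with Gm48084, 563 of Col4a3 with C430014B12Rik, 437 of Nid2 with Rtraf and 292 of Fn1 with Apol7d. Others were 234 of Col9a3 with Tcfl5, 143 of Nid1 with Gm48682, and 113 and 99 of Col5a1 with Gm13372 and 2810430I11Rik. The smallest were 43 of Col4a2 with Gm15419, 22 between Col4a1 and Col4a2, and 14 of Col15a1 with Gm12426.

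Ratios of partner chains are given as a description, since the pairs were picked after their values had been seen and an exact two-sided permutation test of 3 against 3 libraries cannot give a p below 0.1. The ratio of Col1a1 to Col1a2 was 0.101, 0.153 and 0.13 in RA WT, 1.38, 1.27 and 1.48 in OIR WT, and 0.597, 0.999 and 0.652 in OIR KO. No 2 groups overlapped, so the knockout lay between the controls and OIR WT. The ratio of Lama4 to Lama5, the 2 alpha chains of vessel laminins, was 0.377, 0.318 and 0.435, then 1.07, 1.14 and 1.73, then 0.867, 1.25 and 0.923. The ratio of Lamb1 to Lamb2 was 0.948, 0.825 and 0.829, then 1.35, 1.4 and 1.55, then 1.24, 1.31 and 1.02. By FPKM, the chain of these laminin pairs that was lower in controls was the higher one in all 3 OIR WT libraries. Which chain is higher depends on the transcript lengths used for scaling, which no source used here gives. The shift of a ratio between groups does not depend on them where the same lengths served all libraries.

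Col4a1 exceeded Col4a2 in every library, by 1.08, 1.16 and 1.12 in RA WT, 1.49, 1.56 and 1.48 in OIR WT, and 1.39, 1.69 and 1.57 in OIR KO. The ratio was higher in all retinopathy libraries than in any control. For each of these 4 ratios the comparisons of OIR WT and of OIR KO with RA WT gave the smallest possible exact permutation p of 0.1 (0.125 after adjustment over 15 comparisons of 5 ratios, n = 3 per group), so none passed. Between OIR KO and OIR WT the ratio of Col1a1 to Col1a2 differed by -0.91 and that of Lamb1 to Lamb2 by -0.27 on the log2 scale, also at the smallest exact p of 0.1. That of Col4a1 to Col4a2 differed by 0.03 (exact permutation p 0.7).

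**Figure D4:**
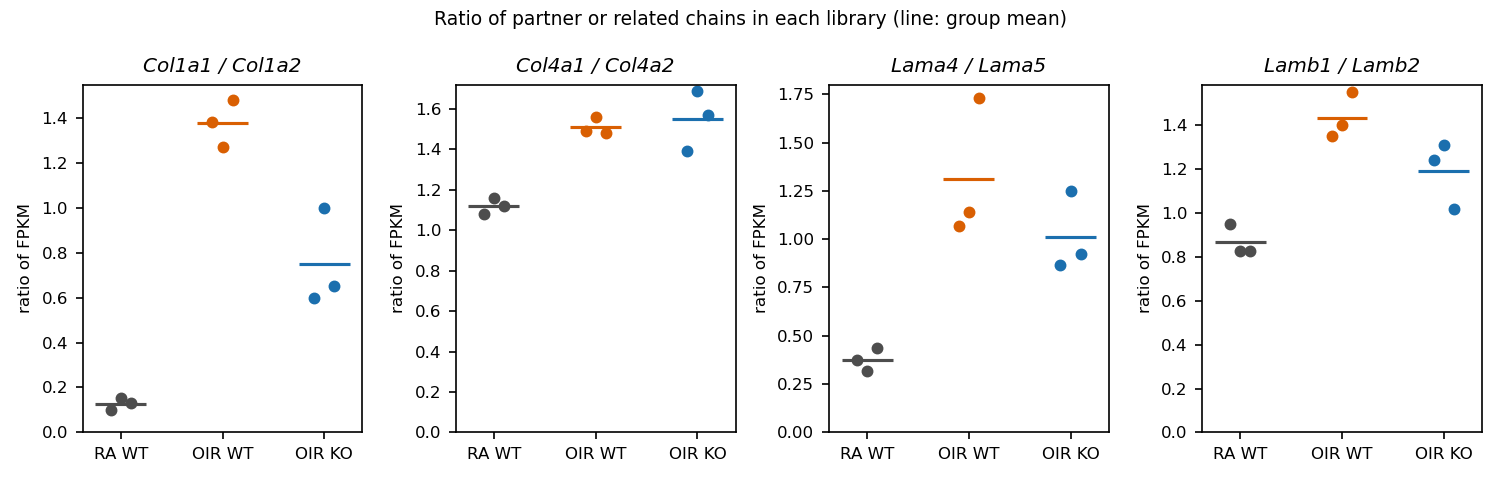
Ratio of FPKM of 4 chain pairs in each library, with points for the 3 libraries of a group and a line at the group mean; each axis starts at 0. The ratio of Col1a1 to Col1a2 is 0.101 to 0.153 in RA WT and 1.27 to 1.48 in OIR WT, with OIR KO between them.

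Loss of IL-19 within retinopathy changed 0 of the 37 tested genes by limma at an adjusted p under 0.05. Over all genes 0.134% were called (21 of 15678), with 0.0574% risen and 0.0765% fallen. At an unadjusted p under 0.05 there were 5 of the 37 (Col9a1, Col9a2, Col9a3, Col8a1 and Fbn1, all higher in the knockout) and 9.91% of all genes. No other tool was run. In 8 of the 38 genes every OIR KO library was above every OIR WT library and in 1 every one was below, beside 9.73% and 7.98% of all tested genes (17.7% in all). The median difference of the 37 genes was 0.03.

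For the strongly risen genes the intervals of the genotype difference were wide. Col4a1 differed by 0.04 (95% interval -0.68 to 0.75), Lama4 by -0.22 (-0.72 to 0.28) and Nid1 by 0.03 (-0.60 to 0.66). Fn1 differed by -0.34 (-0.99 to 0.31) and Col1a1 by -0.56 (-1.24 to 0.12). Col8a1, a chain of the short-chain collagen of vessel and corneal endothelium, was at 1.11 to 1.25 in OIR WT and 1.5 to 2.05 FPKM in OIR KO, a difference of 0.42 (0.11 to 0.73) with a limma p of 0.0136 before and 0.382 after adjustment. Fbn1 was higher by 0.43 (0.03 to 0.84), with 0.0394 before and 0.479 after.

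The spread within OIR KO followed single libraries. In all 15 genes that rose in OIR WT, OIR KO 2 was the highest and OIR KO 3 the lowest of the knockout libraries. Over all 37 tested genes OIR KO 2 was the highest in 26 and OIR KO 3 the lowest in 28. The shares over all genes were not computed, so the order cannot be called particular to these genes. Within OIR WT, library 2 was the lowest in 12 of the 15 and library 3 the highest in 11. The same order was seen in erythrocyte markers within OIR WT, with sums of 1171, 512 and 1431 FPKM. The leading principal component had the order of each group too, at 28.9, 11.7 and 31.3 in OIR WT and 7.96, 32.5 and -3.3 in OIR KO. So had the summed markers of endothelium, of pericytes and smooth muscle, of microglia and macrophages, and of astrocytes. The other summed marker lists did not have it in both groups. The astrocyte sums were 150, 71.8 and 169 in OIR WT and 76.2, 204 and 54.5 FPKM in OIR KO. In RA WT this sum was 39.9 to 48.6 FPKM. Gfap was the only listed astrocyte marker with this order in both retinopathy groups. Aldh1l1 had it in OIR KO alone, S100b in OIR WT alone, and Aqp4 in neither. Of 4 tested, Gfap and Aldh1l1 rose and Aqp4 and S100b fell in OIR WT, where 8.04% of all genes rose and 7.92% fell. Fgfr3 was listed at 0 in some libraries. Gfap, the filament protein of astrocytes and reactive glia, was at 126, 46.8 and 148 in OIR WT and 45.5, 173 and 24.3 FPKM in OIR KO, and rose in OIR WT by 3.25 (SE 0.75, limma adjusted p 0.024). OIR KO 2 was also the knockout library with high erythrocyte markers and the most Cryaa. Their part in the values was not tested. Without OIR KO 3 the number of risen genes in OIR KO against RA WT was 21 in place of 17, and without OIR KO 2 it was 14. Without both RA WT 1 and OIR KO 2 it was 10: Col1a1, Col2a1, Col4a1, Col4a2, Col5a3, Fn1, Lama4, Lamb1, Nid1 and Nid2. In OIR WT against RA WT, Col1a1, Col2a1, Col4a1, Col4a2, Col5a3, Fn1, Hspg2, Lama4, Lamb1, Nid1 and Nid2 kept their call in every alternative analysis.

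**Figure D5:**
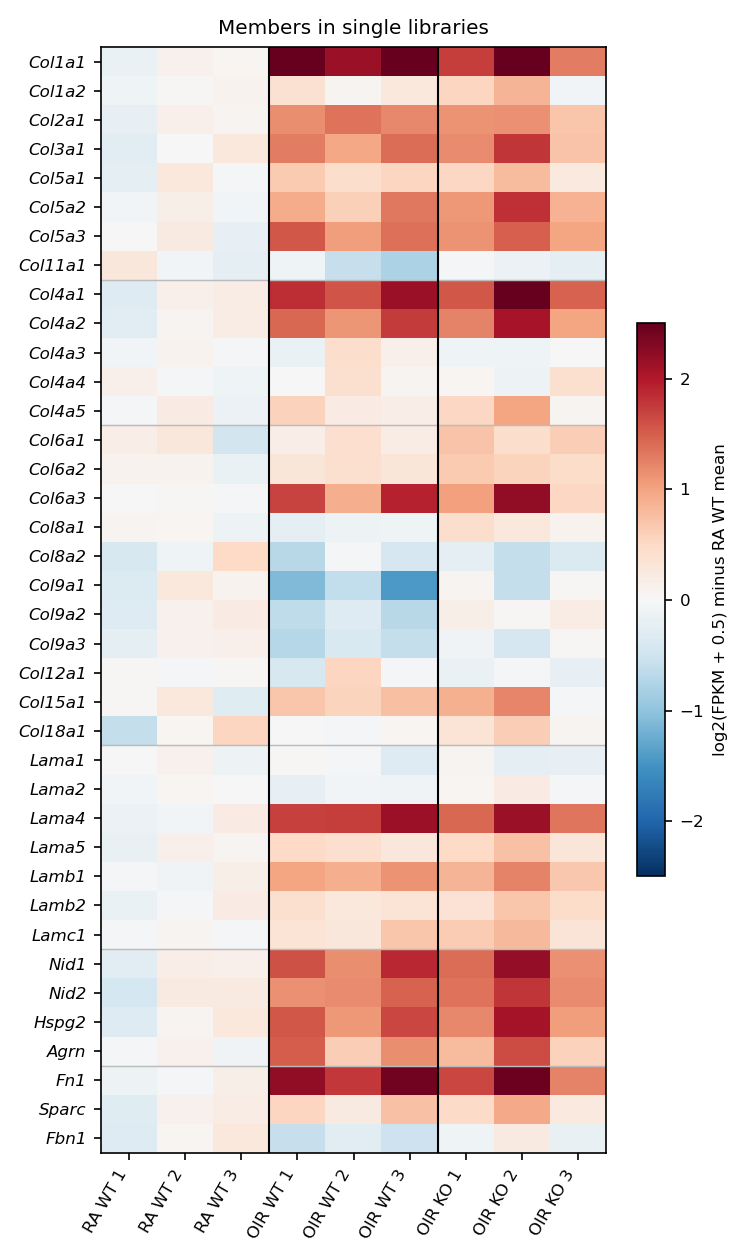
Each gene's log2(FPKM + 0.5) in each of the 9 libraries minus its RA WT mean, red above and blue below, with rows in the order of their roles and values beyond the ends of the scale drawn in the end colours. OIR KO 2 is the darkest knockout column and OIR KO 3 the palest in the 15 genes that rose in OIR WT, and the type IX rows are blue in OIR WT.

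Many genes of enzymes that process and crosslink collagen, like many of the chains, were higher in both retinopathy groups than in RA WT. Of 17 tested genes of collagen assembly and crosslinking, 11 rose and 1 fell in OIR WT, with a median difference of 0.78, and 8 rose and 1 fell in OIR KO, with a median of 0.59. Of all genes 8.04% rose and 7.92% fell in OIR WT, and 4.75% and 5.69% in OIR KO. Lox, among the risen, and Adamts2 passed the filter only through the retinopathy groups. Pcolce, which enhances the removal of procollagen C-propeptides, was at 6.06, 6.17 and 8.71 in RA WT, 118, 40.5 and 115 in OIR WT, and 40.3, 136 and 23.6 FPKM in OIR KO. It rose by 3.48 (SE 0.64, limma adjusted p 0.011) and 2.79 (adjusted p 0.0316), while its relative Pcolce2 fell by 0.86 (adjusted p 0.00688) and 0.61 (adjusted p 0.0338). The lysyl oxidases Loxl2 and Loxl4, which crosslink collagen, rose by 2.26 (adjusted p 0.0032) and 1.92 (adjusted p 0.00463) in OIR WT and by 1.48 (adjusted p 0.0183) and 1.24 (adjusted p 0.0312) in OIR KO. OIR KO and OIR WT overlapped in both, and no gene of the list passed between them (lowest limma adjusted p 0.0722, with 7 of 17 at an unadjusted p under 0.05, where 9.91% of all genes were). The median difference of OIR KO minus OIR WT was -0.17 for this list (range -1.39 to 0.25), beside 0.03 for the 37 matrix genes.

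Receptors for these matrix proteins rose in part. Of 18 tested, 9 rose and 0 fell in OIR WT (median 0.66), and 6 rose and 0 fell in OIR KO (median 0.43), where 8.04% and 4.75% of all genes rose. Itgb3, 1 of the 9, was at 0.0944 to 0.204 FPKM in RA WT and passed the filter only through the retinopathy groups. Itga4, the integrin alpha 4 chain, rose by 1.63 (SE 0.25, limma adjusted p 0.00471) in OIR WT and 1.33 (adjusted p 0.0135) in OIR KO. Itga5, the chain of the fibronectin receptor, was at 0.724, 1.47 and 1.09 in RA WT, 3.94, 2.96 and 5.1 in OIR WT, and 3, 4.73 and 2.76 FPKM in OIR KO, with means 3.65-fold and 3.19-fold higher (limma adjusted p 0.00537 and 0.0119). Adgrg6, an adhesion receptor that binds type IV collagen, rose by 1.53 (adjusted p 0.00541) and 1.27 (adjusted p 0.0147). It reached 0.5 FPKM in 1 RA WT library, so it needed retinopathy libraries to pass the filter. Microglia and macrophage markers, cells that also carry integrins, rose in OIR WT in 5 of 9 tested, with sums of 12.2 to 15.7 in RA WT, 35.8 to 43.2 in OIR WT and 25.4 to 38.3 FPKM in OIR KO, and their part was not tested.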

How the data were processed

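RNA was Trizol-extracted from frozen retina and sequenced from NEBNext Ultra libraries, per the labels' protocols. HISAT2 and GRCm38 are named per the submitters' processing notes. No source used here gives the quantifier, the versions, the strand setting or the annotation. FPKM values of 9 libraries came in a single table that the authors deposited, with 0 columns unused. Of its Ensembl IDs, 22022 matched GENCODE M21, which gave coordinates. Column totals lay between 344876 and 366536 FPKM and are no measure of depth. Absolute depth is unknown: among 4521 genes with a single transcript, 39.9 to 44.1% of low values (up to 20 steps) were whole steps to within 0.02, and reads could not be recovered. Neither a count model nor a counting interval was therefore used. The best step put relative depth at 0.853 (RA WT 2) to 1.14 (OIR KO 2).

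Genes with at least 0.5 FPKM in at least 3 of 9 libraries were kept (15678). On log2(FPKM + 0.5), 1 mean per group was fitted over all 9 libraries with limma 3.58.1 (R 4.3.3), trend and robust empirical Bayes, two-sided, called at an adjusted p under 0.05. The code was tested on simulated data. Members called in a comparison, or with a mean of at least 10 FPKM in a group, are given by library and the others mostly by range, and of each further list the 3 most risen and 3 most fallen called genes may be named; Optc, Pdgfra and the astrocyte genes are named as the called genes of their marker lists, and genes at 0 or below the filter in RA WT were named after their values were seen. The 38 genes, the further lists and the tests were chosen with earlier results of these data known. Alternatives changed the scaling, pseudocount, filter, moderation, samples fitted and covariates, and left out libraries. Replicate numbers did not pair the samples. Some marker genes are not reported here.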

Additional observations from a re-analysis of the deposited data

How the results depend on the processing

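The direction of every called difference held under each of the 16 or 17 alternatives. The number of members risen stayed within 1.5 times in OIR WT against RA WT, at 11 to 15 when 1 library was left out. The 3 fallen type IX chains became 0 with a replicate block and 0 with a Y-linked covariate, and 0 to 3 when 1 library was left out. Genes called in that comparison (2503) became 1581 with the Y-linked covariate and 1031 to 2166 when 1 library was left out (1031 without OIR WT 1, 1331 without OIR WT 3, 1414 without RA WT 3, 1471 without RA WT 2). In OIR KO against OIR WT, 0 members were called in every alternative, and genes called (21) became 13 with a mean of at least 1 FPKM, 13 without trend and robust options, 8 with the replicate block, and 11 to 42 when 1 library was left out (42 without OIR KO 2, 12 without OIR KO 1, 11 without OIR KO 3, OIR WT 1 or OIR WT 3). In OIR KO against RA WT, genes called (1636) became 1081 with the replicate block, 521 without RA WT 1 and OIR KO 2, and 709 to 1791 when 1 library was left out (709 without OIR KO 1, 711 without RA WT 3, 725 without OIR KO 2), and members risen (17) became 10 without RA WT 1 and OIR KO 2. The cause was not tested beyond the smaller number of samples. Same-numbered samples of different groups had correlations of their deviations from -0.353 to 0.134, so the numbers do not pair them; the replicate block left 12 risen members in OIR WT and 14 in OIR KO. No scaling moved the median of all genes by over 0.1. Depth per library is unknown, which limits the lowest members: Lama2, Col8a2, Col4a3 and Col6a3 over all libraries, and also Col1a1 and Col5a2 in RA WT.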

Other observations

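Of 32 further tested matrix glycoproteins and proteoglycans, 11 rose and 4 fell in OIR WT (median 0.35), and 9 rose and 4 fell in OIR KO (median 0.37). Of all genes 8.04% rose and 7.92% fell in OIR WT, and 4.75% and 5.69% in OIR KO. Emilin2 passed the filter only through the retinopathy groups. Bgn, the small proteoglycan biglycan, was at 2.61, 3.8 and 3.43 in RA WT, 20.4, 15 and 23.5 in OIR WT, and 18.5, 27.9 and 10.5 FPKM in OIR KO, and rose by 2.40 (SE 0.32, limma adjusted p 0.00339) and 2.27 (adjusted p 0.0058). Tgfbi, a protein that binds collagens and integrins, rose by 1.74 (adjusted p 0.00126) and 1.97 (adjusted p 0.00141). It reached 0.5 FPKM in 1 RA WT library, so it needed retinopathy libraries to pass the filter. Thbs1, thrombospondin 1, rose by 1.86 in OIR WT (SE 0.44, adjusted p 0.0241) and differed by 1.14 in OIR KO (adjusted p 0.134). The fallen genes with the largest differences in OIR WT were Efemp1 (-0.73, limma adjusted p 0.0108), which encodes fibulin 3, Npnt (-0.60, adjusted p 0.0151), which encodes nephronectin, and Sparcl1 (-0.55, adjusted p 0.00612), a relative of Sparc. None of the 32 passed between OIR KO and OIR WT, where 3 had an unadjusted p under 0.05, as had 9.91% of all genes.

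Of the 20 further collagen chains, 12 passed the filter. In OIR WT 1 of these rose, where 8.04% of all genes did, and in OIR KO 2 rose, where 4.75% did. The chain that rose in OIR WT was Col16a1, a fibril-associated chain. Col16a1 was at 0.419, 0.622 and 0.468 in RA WT, 1.58, 1.44 and 1.48 in OIR WT, and 1.15, 1.23 and 0.949 FPKM in OIR KO. It rose by 1.00 (SE 0.14, limma adjusted p 0.00329) and 0.68 (adjusted p 0.0174). With 1 RA WT library at 0.5 FPKM or more, it needed retinopathy libraries to pass the filter. Col6a4 rose in OIR KO against RA WT by 0.72 (adjusted p 0.047), with 0.12 (adjusted p 0.716) in OIR WT and 0.60 (adjusted p 0.382) between OIR KO and OIR WT. None of the 12 passed between OIR KO and OIR WT (lowest limma adjusted p 0.291), where their median difference was 0.33. At an unadjusted p under 0.05 there were 4 of the 12 and 9.91% of all genes. Of 4 further laminin and netrin chains, 1 fell: Ntng1, netrin G1, by 0.69 in OIR WT (adjusted p 0.0186) and by 0.61 in OIR KO (adjusted p 0.0395). Over all genes 7.92% fell in OIR WT and 5.69% in OIR KO.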
